A study of Mus musculus with 8 samples.

Results

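The basolateral chloride and potassium channel genes of the kidney tubule considered here are 4 of the 47729 genes in the deposited tables, picked by gene symbol. They are Bsnd, Kcnj10, Kcnj15 and Kcnj16. All 4 were among the 18548 genes with enough counts to be tested. RNA-seq was done on whole kidneys of mice on postnatal day 8. The knockout group (n = 4 libraries) carried Six2Cre and floxed Kctd1 alleles and is labelled a nephron-specific Kctd1 knockout. The wildtype group (n = 4 libraries) consisted of control littermates, whose Cre and floxed allele status the labels do not give. Six2 drives Cre in nephron progenitors, so the deletion reaches the nephron epithelium from podocyte to distal tubule while the collecting duct, interstitium, vessels and leukocytes belong to other lineages. The comparison asks which transcripts of the young kidney differ when Kctd1 is deleted in the nephron.

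Salt leaves the cells of the distal convoluted tubule and thick ascending limb on the blood side through chloride channels, while the sodium pump works beside them. Potassium channels in the same membrane return the potassium that the pump brings in and hold the membrane voltage that drives chloride out. Bsnd encodes barttin, the accessory subunit that basolateral chloride channels of the kidney and inner ear need to reach the membrane, and its loss in people causes Bartter syndrome with deafness. Kcnj10 encodes Kir4.1, the main basolateral potassium channel subunit of the distal convoluted tubule, which is also abundant in glia. Kcnj16 encodes Kir5.1, which forms channels together with Kir4.1 in the distal tubule and with Kir4.2 in the proximal tubule. Kcnj15 encodes Kir4.2, known from the proximal tubule. The pore-forming chloride channel subunits that barttin accompanies are not analysed here.

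The genes lie on 4 chromosomes (GRCm38, the assembly called mm10, GENCODE M21 annotation). Bsnd (ENSMUSG00000025418) spans chr4:106483456-106492283 on the minus strand and Kcnj10 (ENSMUSG00000044708) spans chr1:172341210-172374085 on the plus strand. Kcnj15 (ENSMUSG00000062609) spans chr16:95257558-95300260 and Kcnj16 (ENSMUSG00000051497) spans chr11:110968033-111027968, both on the plus strand. All 4 are annotated as protein-coding, with 1 transcript each for Bsnd and Kcnj10, 13 for Kcnj15 and 6 for Kcnj16. The deposited values are sums per gene, so transcripts of Kcnj15 or Kcnj16 cannot be told apart. Of the 31-base words of the annotated transcripts, 0 of 2726 for Bsnd, 1.6% for Kcnj10, 0.916% for Kcnj15 and 1.41% for Kcnj16 also occur in transcripts of other genes. A small part of the Kcnj10, Kcnj15 and Kcnj16 transcripts could therefore give ambiguous reads. The annotation places 2 antisense genes over Kcnj15, and the library kit is strand-specific per the labels.

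The sequences just upstream of the annotated starts are shown because Kctd1 encodes a known repressor of AP-2 family transcription factors. They are the 250 bases before each RefSeq start on GRCm38.p6, which the RefSeq promoter table holds for 3 of the 4 genes at 6 starts in all. Bsnd is the gene named only. Capitals mark the AP-2 motif GCCNNNGGC and the letters GTTAAT, the core of the motif of HNF1, a factor of tubule epithelium. Both strands were searched, so GTTAAT is also found as ATTAAC, and the matches do not overlap.
Kcnj10 (chr1:172340960-172341209, plus strand): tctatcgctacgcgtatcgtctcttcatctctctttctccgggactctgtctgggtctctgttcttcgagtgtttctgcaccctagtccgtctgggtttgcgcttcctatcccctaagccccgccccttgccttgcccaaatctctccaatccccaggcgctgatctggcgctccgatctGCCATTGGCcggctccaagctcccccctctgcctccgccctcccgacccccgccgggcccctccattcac
Kcnj15 (chr16:95257308-95257557, plus strand): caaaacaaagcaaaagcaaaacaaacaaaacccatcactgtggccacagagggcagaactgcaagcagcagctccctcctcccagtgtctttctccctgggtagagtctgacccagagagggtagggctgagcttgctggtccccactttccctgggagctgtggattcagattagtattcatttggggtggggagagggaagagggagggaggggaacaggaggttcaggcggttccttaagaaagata
Kcnj16, the most upstream of its starts (chr11:110967783-110968032, plus strand): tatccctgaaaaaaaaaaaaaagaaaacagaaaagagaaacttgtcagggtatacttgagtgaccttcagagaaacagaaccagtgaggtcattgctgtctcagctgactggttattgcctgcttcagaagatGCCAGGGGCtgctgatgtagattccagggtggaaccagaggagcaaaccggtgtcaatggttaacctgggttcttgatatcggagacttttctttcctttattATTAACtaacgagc
In these windows Kcnj10 held 1 AP-2 match, beginning 70 bases before the start. Kcnj16 held 1, beginning 117 bases before its most upstream start, and 1 match to the HNF1 letters beginning 14 bases before that start. The other 3 Kcnj16 starts and the Kcnj15 start held 0 matches to either. Among all 32851 promoter windows of that length, 13.7% held the AP-2 letters and 6.43% the HNF1 letters. A match is a description of the letters and shows no binding.

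Library totals ran from 14457760 to 20741076 counts, and the 4 channel genes had 869 to 5798 counts in each library. Whether each library of a group came from a separate animal is not stated in the labels. The spread behind each p-value is that between libraries and may be technical in part. Kctd1 itself measured 24.3 ± 1.57 CPM in knockout kidneys and 31.6 ± 1.77 CPM in wildtype kidneys (SD, n = 4 each), and its highest knockout value was under its lowest wildtype value (edgeR adjusted p = 0.279, DESeq2 adjusted p = 0.0220). The library labelled knockout 2 had 5.43% of its counts on ribosomal RNA rows, against 0.364% to 1.15% in the other 7, and its 10 highest rows took 43.3% of TPM, against 20.5% to 27.3%. Its TPM values of most genes are lowered by that share, so groups were compared on CPM with trimmed mean (TMM) scaling and TPM was used to rank genes within a library. Xist, expressed in females, was high in knockout 2 and in wildtype 3 (81994 and 101295 counts) and at most 151 in any other library. The libraries of a group therefore did not all come from the same animal.

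Per unit of transcript length, Kcnj16 was the most abundant of the 4 and Kcnj10 the least. Kcnj16 measured 36.2 ± 7.74 TPM in knockout kidneys and 40.2 ± 4.90 TPM in wildtype kidneys (SD, n = 4 each). Bsnd measured 19.8 ± 2.68 TPM in knockout kidneys and 20.8 ± 0.397 TPM in wildtype kidneys, and Kcnj15 measured 19.6 ± 2.29 and 20.02 ± 3.19 TPM in the same order of groups. Kcnj10 measured 5.97 ± 0.751 TPM in knockout kidneys and 9.11 ± 0.627 TPM in wildtype kidneys. Kcnj16 exceeded Bsnd in 8 of 8 libraries, by 1.54 to 2.29 times. Bsnd and Kcnj15 could not be ordered, since each was the higher in 4 of 8 libraries. Kcnj15 exceeded Kcnj10 in 8 of 8 libraries, by 2.01 to 3.48 times.

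Of the channel genes, Kcnj10 was the 1 whose knockout and wildtype libraries did not overlap. Its level was 73.2, 73.1, 60.0 and 63.2 CPM in knockout libraries 1 to 4, against 97.4, 91.4, 88.9 and 94.3 CPM in wildtype libraries 1 to 4. The 4 knockout values were therefore all under the lowest wildtype value, with knockout 1 the nearest to it. The fitted level in knockout was 72.4% of that in wildtype, with a 95% interval of 63.7% to 82.3% (log2 fold change -0.47 ± 0.08 SE). Over all genes this missed the threshold of 0.05 (edgeR adjusted p = 0.127, with unadjusted p = 2.05e-04, rank 30 of the 18548). DESeq2 called it lower (adjusted p = 2.91e-04). Over the 21 alternatives tried, the adjusted p ran from that value to 0.352, and DESeq2 was the 1 setting that called it. Without knockout 2 and wildtype 3 the log2 fold changes were -0.53 for Kcnj10 (edgeR adjusted p = 0.236), 0.07 for Bsnd, 0.04 for Kcnj15 and -0.01 for Kcnj16. In whole kidney, fewer cells of a type and less RNA per cell cannot be told apart.

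Bsnd, the barttin gene, did not separate the groups. Bsnd measured 118, 112, 103 and 101 CPM in knockout libraries 1 to 4, against 104, 107, 107 and 96.1 CPM in wildtype libraries 1 to 4. The ranges overlapped, with the highest values in knockout 1 and knockout 2 and the lowest in wildtype 4. The fitted level in knockout was 105% of wildtype, with a 95% interval of 93.8% to 118% (log2 fold change 0.07 ± 0.07 SE, edgeR adjusted p = 0.940). A fall or rise of Bsnd as large as the difference measured for Kcnj10 lies outside that interval.

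Kcnj15, the Kir4.2 gene, did not separate the groups either. It measured 215, 216, 193 and 196 CPM in knockout libraries 1 to 4, against 203, 171, 169 and 215 CPM in wildtype libraries 1 to 4. Wildtype 2 and wildtype 3 were the lowest libraries, while wildtype 1 and wildtype 4 lay within the knockout range. The fitted level in knockout was 108% of wildtype, with a 95% interval of 94.3% to 125% (log2 fold change 0.12 ± 0.09 SE, edgeR adjusted p = 0.924).

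Kcnj16, the Kir5.1 gene, had the difference nearest to 0. It measured 231, 237, 241 and 288 CPM in knockout libraries 1 to 4, against 254, 230, 247 and 279 CPM in wildtype libraries 1 to 4. The libraries of both groups were intermingled, and the highest of each group, knockout 4 and wildtype 4, stood at similar levels. The fitted level in knockout was 98.6% of wildtype, with a 95% interval of 86.2% to 113% (log2 fold change -0.02 ± 0.09 SE, edgeR adjusted p = 0.990).

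**Figure D1:**
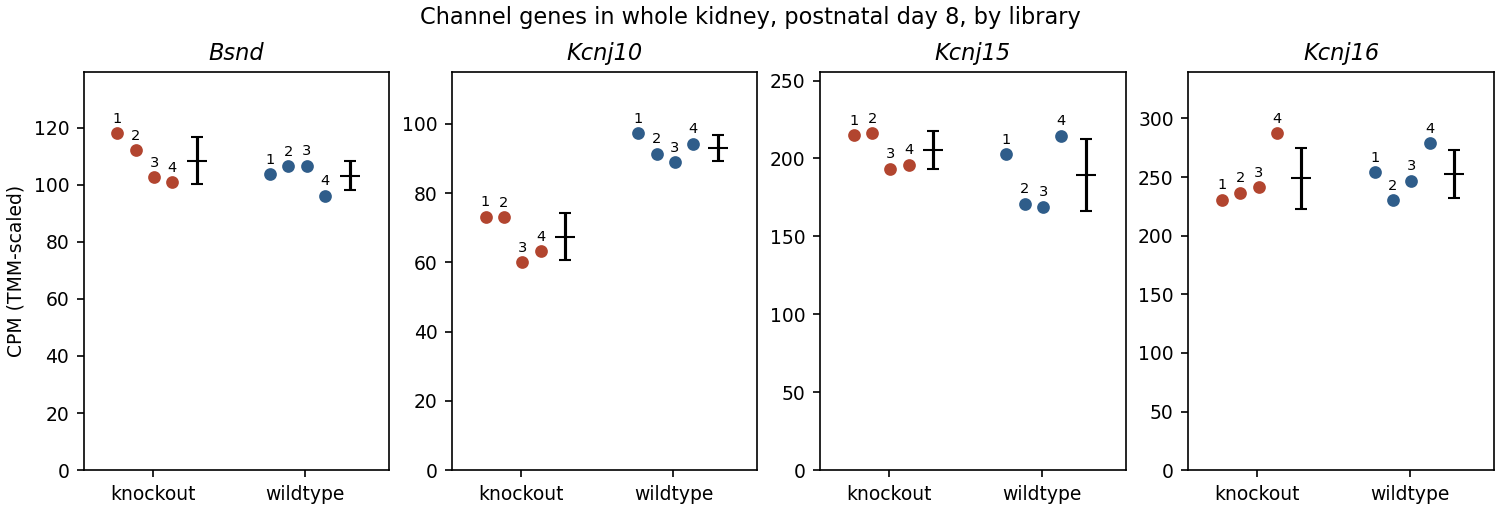
TMM-scaled CPM of Bsnd, Kcnj10, Kcnj15 and Kcnj16 (y axes, from 0) in the 4 knockout and 4 wildtype libraries (x axis, numbered points), with the mean and SD of each group as a bar to the right of its points. Kcnj10 is the gene whose groups stand apart, at 60.0 to 73.2 CPM in knockout kidneys and 88.9 to 97.4 CPM in wildtype kidneys.

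Set against the whole table, 0 of the 4 genes passed with edgeR in either direction, where 0.0323% of all genes passed as higher and 0.0485% as lower in knockout. At an unadjusted edgeR p under 0.05, 1 of the 4 was lower and 0 were higher, against 3.08% and 3.11% of all genes. DESeq2 called 1 of the 4 lower and 0 higher, against 0.43% and 0.239% of the 23019 genes to which it gave an adjusted p. The knockout libraries were all below the wildtype libraries for 1 of the 4 genes and all above them for 0 of the 4, against 2.06% and 1.97% of all genes tested. With 4 genes, these shares describe Kcnj10 and not the group. The median log2 fold change was 0.03 over the 4 genes, 2 positive and 2 negative, and 0.0012 over all genes tested, of which 50.3% were positive.

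Ratios of 2 channel genes within a library do not depend on how libraries are scaled, and 6 pairs were compared. Relative to each of the other 3 genes, Kcnj10 was lower in the knockout libraries. The log2 ratio of Kcnj10 to Kcnj16 counts was -1.66, -1.69, -2.01 and -2.19 in knockout libraries 1 to 4, against -1.38, -1.33, -1.47 and -1.56 in wildtype libraries 1 to 4. The groups did not overlap, with knockout 1 and wildtype 4 only 0.093 apart. The means differed by -0.45 ± 0.14 (SE), so that Kir4.1 transcripts per Kir5.1 transcript stood at 0.733 times the wildtype value. The ratio of Kcnj10 to Kcnj15 differed by -0.59 ± 0.07 and that of Kcnj10 to Bsnd by -0.54 ± 0.06, with gaps of 0.37 and 0.36 between the nearest libraries of the groups.

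In an exact two-sided permutation test over the 70 relabelings, each of these 3 ratios gave p = 0.0286, the smallest that 4 against 4 allows, and 0.0571 after Benjamini-Hochberg adjustment over the 6 pairs. No pair was under the threshold of 0.05 after that adjustment. The 3 ratios with Kcnj10 share that gene and are not independent. The 3 pairs without Kcnj10 had overlapping groups. Kcnj15 to Kcnj16 differed by 0.14 ± 0.11 (exact permutation p = 0.229), Kcnj15 to Bsnd by 0.05 ± 0.12 (exact permutation p = 0.771) and Kcnj16 to Bsnd by -0.09 ± 0.15 (exact permutation p = 0.486). With 1 library left out, Kcnj15 to Kcnj16 ran from 0.09 without knockout 1 to 0.24 without knockout 4, where its exact permutation p was 0.0571. Kcnj16 to Bsnd ran from -0.20 without knockout 4 to -0.01 without wildtype 4. Leaving out any 1 library left the Kcnj10 to Kcnj16 difference between -0.52 and -0.35. In a 4 against 3 design the exact two-sided p cannot go below 0.0571, the value found each time for that ratio.

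**Figure D2:**
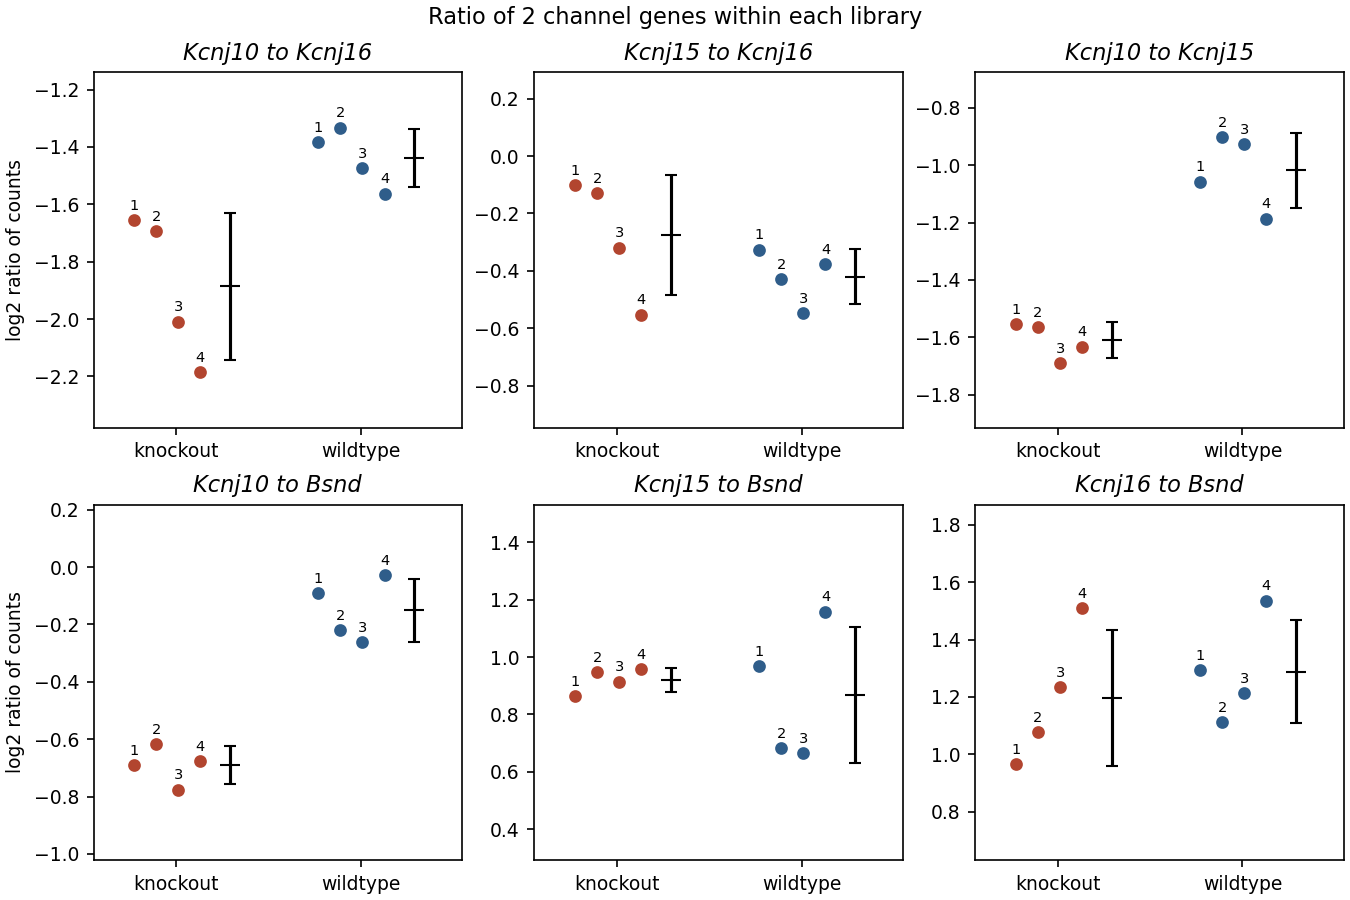
Log2 ratio of the counts of 2 channel genes (y axes, each spanning the same width) in knockout and wildtype libraries (x axis, numbered points), with the mean and SD of each group as a bar. The 3 panels with Kcnj10 show groups that stand apart, and the 3 panels without it show overlapping groups.

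The make-up of the pool of the 3 Kir transcripts in TPM can be given as shares. Kcnj10 made up 10.8%, 10.6%, 9.08% and 8.53% of their summed TPM in knockout libraries 1 to 4, against 13.4%, 14.1%, 13.2% and 12.1% in wildtype libraries 1 to 4. Every knockout share lay below every wildtype share. Kcnj15 made up 32.0% ± 2.58 in knockout kidneys and 28.8% ± 1.34 in wildtype (SD, n = 4 each), and Kcnj16 made up 58.3% ± 3.66 and 58.0% ± 1.27 in the same order of groups. These shares sum to the whole, so a lower share of Kcnj10 raises the other 2 by construction.

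Other steps of salt transport by the same cells were read from lists of genes. Of the 6 genes of apical salt entry and potassium recycling, edgeR called 1 lower and 0 higher, against 0.0485% and 0.0323% of all genes. The median log2 fold change of the 6 was -0.17. Slc12a3, the thiazide-sensitive cotransporter of the distal convoluted tubule, was the gene that fell, to 247 ± 30.9 CPM in knockout kidneys against 464 ± 23.9 CPM in wildtype kidneys (log2 fold change -0.91 ± 0.09, edgeR adjusted p = 0.00634). Without knockout 2 and wildtype 3 its log2 fold change was -0.94 and its edgeR adjusted p was 0.0715, so that call was lost. Umod, which encodes uromodulin of the thick ascending limb, measured 1206 ± 96.3 CPM in knockout kidneys and 831 ± 69.1 CPM in wildtype kidneys, a log2 fold change of 0.54 ± 0.08 that just missed the threshold with edgeR (adjusted p = 0.0599) and that DESeq2 called higher. Slc12a1, the furosemide-sensitive cotransporter of that limb, had a log2 fold change of -0.26 ± 0.08 and Slc9a3, a sodium-proton exchanger gene, one of -0.26 ± 0.17. Kcnj1, which encodes the apical channel that recycles potassium, is also in the list and measured 140 ± 7.56 CPM in knockout kidneys and 145 ± 4.62 CPM in wildtype kidneys.

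The sodium pump shares the basolateral membrane with these channels. Of 6 pump and potassium chloride cotransporter genes, 0 were called by edgeR or DESeq2, and the median log2 fold change was -0.09. At an unadjusted edgeR p under 0.05, 2 of the 6 were lower and 0 higher, against 3.08% and 3.11% of all genes. Atp1b1, which encodes the beta subunit, measured 1623 ± 153 CPM in knockout kidneys and 1878 ± 128 CPM in wildtype kidneys, with overlap. The cotransporter gene Slc12a4 had a log2 fold change of -0.13 ± 0.09.

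Regulators of the cotransporter and of the Kir channels gave 0 edgeR calls among 11 genes, with a median log2 fold change of -0.04. At an unadjusted edgeR p under 0.05, 3 were lower and 1 was higher, against 3.08% and 3.11% of all genes. Wnk4, the kinase that switches on the cotransporter through SPAK, measured 158 ± 13.1 CPM in knockout kidneys and 215 ± 22.3 CPM in wildtype kidneys, and DESeq2 called it lower. Klhl3, the adaptor that targets WNK kinases for degradation, measured 13.3 ± 2.39 CPM in knockout kidneys and 17.7 ± 0.799 CPM in wildtype kidneys. Stk39, which encodes SPAK, measured 46.3 ± 8.63 and 58.3 ± 3.39 CPM in the same order of groups. For these 3 of the 11 genes every knockout library was below every wildtype library, against 2.06% of all genes tested. Casr, the calcium-sensing receptor gene, whose product is known to inhibit Kir4.1 channels, measured 34.1 ± 7.89 CPM in knockout kidneys and 26.3 ± 2.29 CPM in wildtype kidneys, with overlap.

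**Figure D3:**
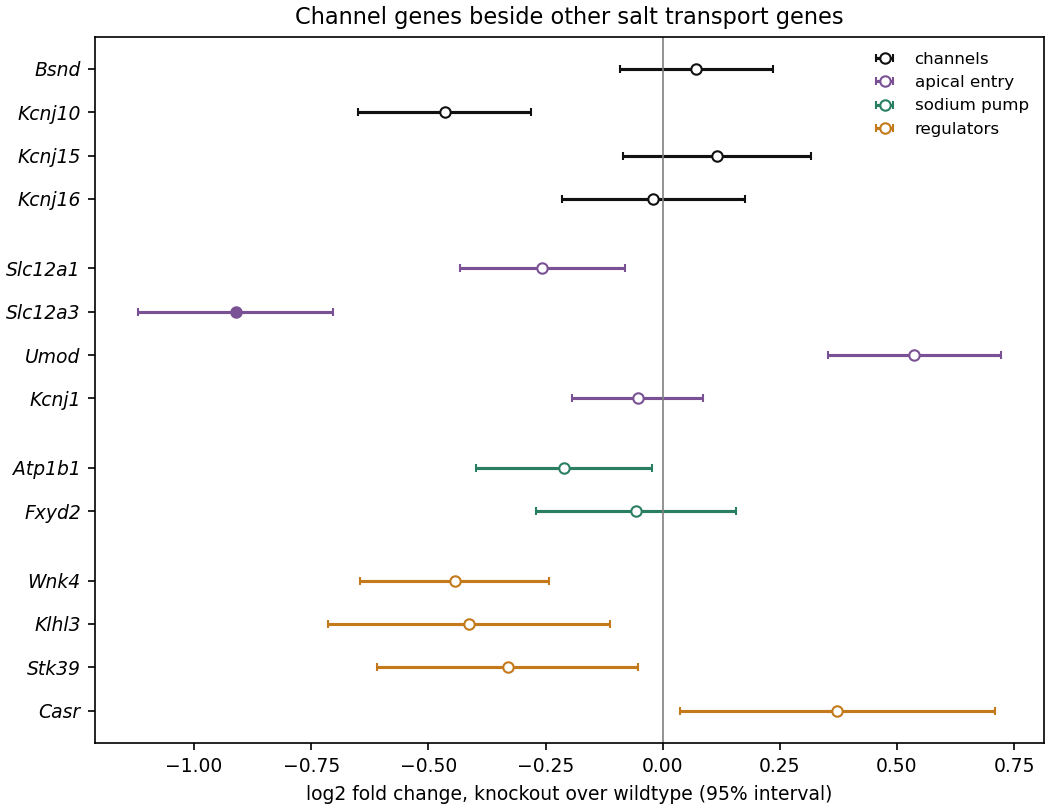
Log2 fold change of knockout over wildtype (x axis) with its 95% interval for the channel genes and for genes of apical entry, the sodium pump and regulators (y axis); a filled point marks an edgeR adjusted p under 0.05, and only Slc12a3 at -0.91 has one. The intervals of Kcnj10, Slc12a1, Slc12a3, Atp1b1, Wnk4, Klhl3 and Stk39 lie below 0, and those of Umod and Casr above it. Those of Bsnd, Kcnj15, Kcnj16, Kcnj1 and Fxyd2, a gene of the sodium pump list, span it.

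Of 12 other Kir genes, 7 were tested, and edgeR and DESeq2 called 0 of them, with 0 at an unadjusted edgeR p under 0.05. Their median log2 fold change was -0.30, with 6 negative and 1 positive. Kcnj5 measured 9.22 ± 0.674 CPM in knockout kidneys and 11.3 ± 1.69 CPM in wildtype kidneys, and Kcnj8, which encodes a subunit of ATP-sensitive channels, 13.7 ± 3.14 and 16.4 ± 0.438 CPM in the same order of groups. Kcnj13 and Kcnj12 were weak and variable, with log2 fold changes of -1.43 ± 0.74 and -0.94 ± 0.75. The Kir genes that neighbour the channel genes on the chromosome were low. Kcnj9, 11892 bases from Kcnj10, had 11 counts over all 8 libraries, and Kcnj6, 259857 bases from Kcnj15, had 0. Kcnj2, 38196 bases from Kcnj16, measured 5.97 to 16.1 CPM in knockout kidneys and 5.99 to 19.7 CPM in wildtype kidneys.

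Potassium and chloride channels of other families gave 0 calls with edgeR or DESeq2. Of 15 further kidney potassium channel genes 12 were tested, with a median log2 fold change of 0.11 and 0 at an unadjusted edgeR p under 0.05. The smallest p-values among them belonged to Kcnk3 (0.33 ± 0.18), Kcnma1 (0.41 ± 0.23), Kcnn4 (0.76 ± 0.50) and Kcnq1 (0.28 ± 0.34), given as log2 fold changes. The 13 other chloride channel and transport genes had a median log2 fold change of 0.01. At an unadjusted edgeR p under 0.05 there was 1 higher of the 13, against 3.11% of all genes. That gene was Clcn5, an endosomal exchanger of the proximal tubule, at 132 ± 8.17 CPM in knockout kidneys and 115 ± 7.77 CPM in wildtype kidneys. The log2 fold changes of Ano6, Clcn3 and Lrrc8a were -0.11 ± 0.06, 0.10 ± 0.06 and 0.12 ± 0.08.

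Markers of the segments that hold these channels were set beside them. The log2 fold changes of the distal convoluted tubule markers were negative for 7 of 7 genes (median -0.44), and their summed level was 471 to 572 CPM in knockout kidneys and 799 to 880 CPM in wildtype kidneys. Slc12a3, Wnk4 and Klhl3 are among these 7 as well as in the lists above. Slc12a3 and Pvalb fell with edgeR, 2 of the 7 against 0.0485% of all genes. At an unadjusted edgeR p under 0.05 there were 6 lower of the 7, against 3.08% of all genes. Pvalb, which encodes parvalbumin of the early segment, measured 9.79 ± 1.68 CPM in knockout kidneys and 39.3 ± 4.31 CPM in wildtype kidneys, a log2 fold change of -2.01 ± 0.14 (edgeR adjusted p = 3.64e-04). Without knockout 2 and wildtype 3, Pvalb alone of the 7 passed (edgeR adjusted p = 0.0162), and the median was -0.52. Kcnj10, at -0.47 ± 0.08, lay near Wnk4 at -0.44 ± 0.09, Emx1 at -0.44 ± 0.09 and Klhl3 at -0.41 ± 0.14. It lay nearer to 0 than Pvalb and than Slc12a3 at -0.91 ± 0.09. As log2 of CPM over the wildtype mean, knockout libraries 1 to 4 stood at -0.14, -0.38, -1.04 and -1.09 for Trpm6. For Sgms2 they stood at 0.08, -0.14, -0.42 and 0.26. Among the knockout libraries, the lowest value was in knockout 3 for Kcnj10 and for 3 of the 7 markers (Slc12a3, Klhl3 and Sgms2), while Pvalb and Wnk4 were highest there. The part of these marker levels in the lower Kcnj10 was not tested.

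Markers of the segments where the other channel genes are known were read in the same way. The 7 thick ascending limb markers had a median log2 fold change of -0.13 and a summed level of 2260 to 2632 CPM in knockout kidneys and 2079 to 2283 CPM in wildtype kidneys, with 0 edgeR calls. Without Umod the other 6 summed to 1091 to 1291 CPM in knockout kidneys and 1274 to 1410 CPM in wildtype kidneys, so the higher sum rested on Umod. Of those 6, Slc12a1 alone measured 977 ± 89.6 CPM in knockout kidneys and 1167 ± 59.9 CPM in wildtype kidneys. Of the 7 limb markers, 2 were higher and 1 lower at an unadjusted edgeR p under 0.05, against 3.11% and 3.08% of all genes. For 2 of the 7, Umod and Enox1, every knockout library was above every wildtype library, and 0 were all below. The shares of all genes tested were 1.97% and 2.06%. The 8 intercalated cell markers, of cells that also express barttin, had a median of 0.13, with 7 positive and 0 called, and a summed level of 628 to 709 CPM in knockout kidneys and 576 to 632 CPM in wildtype kidneys. Of these 8, 3 were higher and 0 lower at an unadjusted edgeR p under 0.05, against 3.11% and 3.08% of all genes. Foxi1, the intercalated cell transcription factor gene, measured 52.0 ± 5.92 CPM in knockout kidneys and 41.6 ± 1.62 CPM in wildtype kidneys, without overlap. Of the 8 markers 1 had every knockout library above every wildtype library, against 1.97% of all genes tested. The 8 proximal tubule markers, of the segment that holds Kcnj15 and Kcnj16, had a median of 0.10 and a summed level of 3982 to 4203 CPM in knockout kidneys and 3910 to 4100 CPM in wildtype kidneys, with 0 edgeR calls. At an unadjusted edgeR p under 0.05, 3 of the 8 were higher and 1 lower, against 3.11% and 3.08% of all genes. The smallest p belonged to Slc13a3, a dicarboxylate transporter gene, at 184 ± 10.9 CPM in knockout kidneys and 144 ± 17.4 CPM in wildtype kidneys. For 2 of the 8 every knockout library was above every wildtype library, and for 1, Slc5a2, every one was below. The shares of all genes tested were 1.97% and 2.06%. The 8 connecting tubule and principal cell markers had a median of 0.00 and 0 calls, with Scnn1b, a sodium channel subunit gene, at 0.11 ± 0.06.

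Kcnj10 is also expressed in glia, so glial and nerve markers were read. Their summed level was 39.0 to 47.9 CPM in knockout kidneys and 33.3 to 39.5 CPM in wildtype kidneys, with a median log2 fold change of 0.24 over 6 genes and 0 called. None of the 6 was at 0 in every library, and Gfap, Sox10 and S100b averaged under 2 CPM in each group. At an unadjusted edgeR p under 0.05, 1 of the 6 was higher and 0 were lower, against 3.11% and 3.08% of all genes. The ranges of the summed level overlapped in part. The part of glial cells in the Kcnj10 level was not tested.

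**Figure D4:**
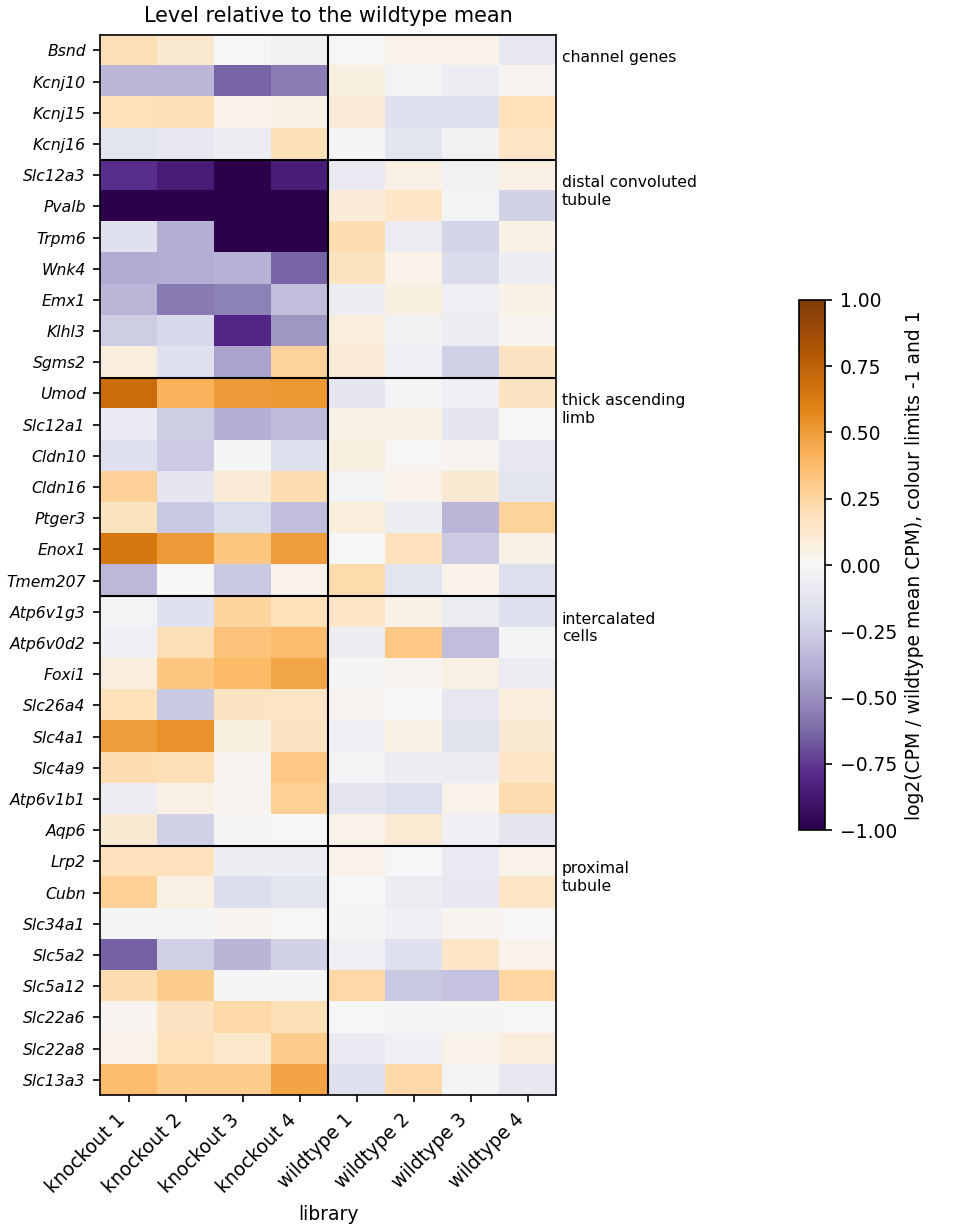
Level of each gene (rows) in each library (columns, knockout left of wildtype) as log2 of CPM over the wildtype mean, in colour from -1 (purple) to 1 (brown), with values beyond these limits shown at the limit. Kcnj10 and most distal convoluted tubule markers are purple in all 4 knockout libraries, while Bsnd, Kcnj15 and Kcnj16 stay pale in both groups.

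The genes whose pattern over the 8 libraries was most like that of each channel gene were found by Pearson correlation of log2 CPM among 13106 named genes with a mean of at least 5 CPM. For Kcnj10 they were Arl10 (r = 0.99), Adcy1 (r = 0.97) and Med17 (r = 0.97). Adcy1, an adenylyl cyclase gene, measured 45.3 ± 5.89 CPM in knockout kidneys and 64.8 ± 3.47 CPM in wildtype kidneys, at a log2 fold change of -0.52 ± 0.10. For Kcnj15 they were Slc5a12 (r = 0.98), a lactate transporter gene of the proximal tubule, D630045J12Rik (r = 0.98) and Zdhhc18 (r = 0.97). For Kcnj16 they were Gys1 (r = 0.93), Rcsd1 (r = 0.93) and Spp1 (r = 0.91), and for Bsnd they were Zfp871 (r = 0.97), Lnpep (r = 0.96) and Anks6 (r = 0.95). These are the highest of 13106 values over 8 libraries in each case, and they are given as descriptions. Slc5a12 had low values in wildtype 2 and wildtype 3, the libraries in which Kcnj15 was also low. It was picked for its likeness to Kcnj15, so this shared pattern follows from the choice.

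**Figure D5:**
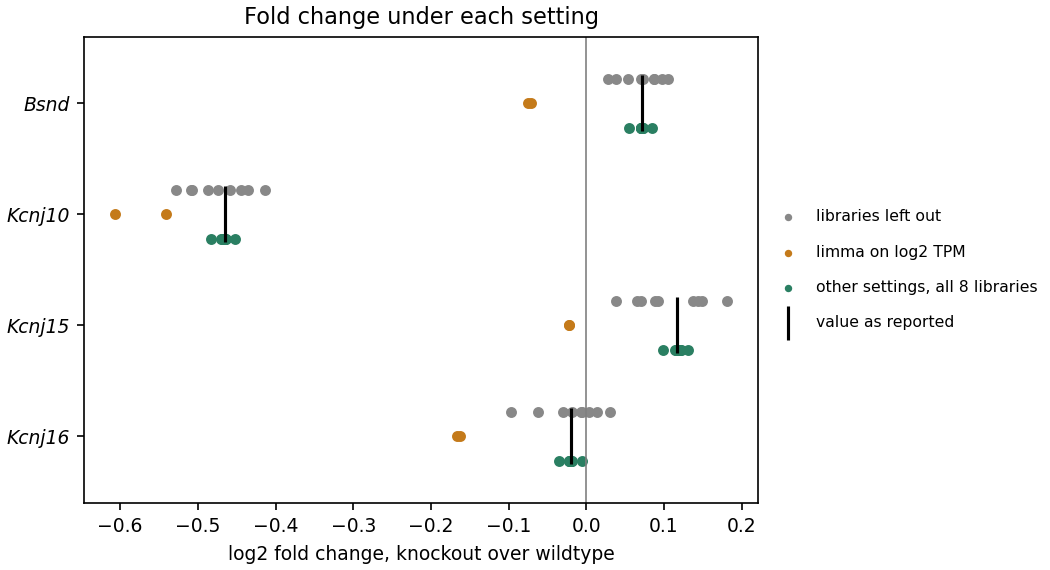
Log2 fold change of knockout over wildtype (x axis) for each channel gene (y axis) as reported (black line), with libraries left out (grey), by limma on log2 TPM (orange) and under the other settings with all 8 libraries (green). Kcnj10 stays between -0.61 and -0.41, and the other 3 genes lie near 0 with signs that depend on the setting.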

How the data were processed

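RNA-seq libraries of whole kidney were made with a strand-specific kit, per the labels' protocols. Salmon, DESeq2 1.14.1 and the mm10 build are named in the submitters' processing notes. The annotation release was not given in the sources used here. In the tables the authors deposited are estimated counts per gene, whole numbers in the file, and TPM values per gene with identifiers and symbols. The 47729 count rows carry no names and took, by order, the names of the TPM rows, where 2 identifiers stand on 2 rows each and were used once. This was checked on the 13251 genes whose counts were all 50 or more: between libraries, the log2 of count over scaled TPM varied with a median SD of 7.45e-04, against 0.281 with rows shifted by 1. The channel genes, lists and tests were chosen with earlier results of these data known.

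Genes were filtered with filterByExpr, scaled with TMM factors and tested with edgeR 4.0.16 (R 4.3.3) by the robust quasi-likelihood test, two-sided, genotype alone, adjusted over 18548 genes by Benjamini-Hochberg with a threshold of 0.05. SE is the absolute log2 fold change over the square root of F. Pair ratios used counts plus 0.5 and an exact permutation test. Alternatives were other scalings and filters, DESeq2 1.42.0, limma 3.58.1 (voom, log2(TPM + 1), log2(TPM + 0.1)), the replicate number as a block, non-robust dispersion, ribosomal and mitochondrial rows left out, and libraries left out. Named genes were the 4 channel genes, up to 4 per pathway list and 1 per cell type list with the smallest p, those past the threshold, Slc12a1, Slc12a3, Umod, Pvalb, Kctd1 and the 3 most alike per channel gene. Others (Fxyd2, Kcnj1, Kcnj2, Kcnj6, Kcnj9, Emx1, Sgms2, Trpm6, Enox1, Slc5a2, Gfap, Sox10 and S100b) were named after their values were seen. All 134 list symbols were found. Some genes that this rule names are not reported here.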

Additional observations from a re-analysis of the deposited data

How the results depend on the processing

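Kcnj10 was lower in knockout under all 21 alternatives, with log2 fold changes of -0.61 to -0.41. DESeq2 was the 1 that called it (-0.47, adjusted p = 2.91e-04), and the cause was not tested. Bsnd, Kcnj15 and Kcnj16 were not called under any alternative. With limma on log2(TPM + 1) and log2(TPM + 0.1) the median of all genes moved to -0.11 and -0.14. There Bsnd turned to -0.071 and -0.075 and Kcnj15 to -0.022 and -0.023, and Kcnj16 moved to its lowest values, -0.162 and -0.167. Relative to that median Bsnd and Kcnj15 stayed positive, at 0.035 and 0.067 for Bsnd and 0.084 and 0.12 for Kcnj15. Kcnj16 stood at -0.057 and -0.025 relative to it. Leaving out each library gave -0.096 to 0.031 for Kcnj16, positive without knockout 1, knockout 2 or wildtype 4. The difference in the log2 ratio of Kcnj15 to Bsnd ranged from -0.016 to 0.15 there and turned negative without wildtype 2 or wildtype 3. The differences of Kcnj10 to Kcnj15 and to Bsnd stayed within -0.65 to -0.55 and -0.58 to -0.50.

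Genes past the threshold over the whole table numbered 15. They numbered 154 with DESeq2, 27 with no filter on low counts, 6 with either TPM setting, 3 without knockout 2 and wildtype 3, and 10 to 52 with 1 library left out (29 without knockout 3, 10 without wildtype 3, 52 without wildtype 4). For Slc12a3, Pvalb, Slc4a11, Umod, Wnk4 and Kctd1 the same alternatives were run after the data were seen, and 0 values changed sign. Slc12a3 lost its call in 3 of 21 (adjusted p up to 0.0715), Slc4a11 in 6 (up to 0.130) and Pvalb in 0. Umod gained a call in 5, and Wnk4 and Kctd1 in 1 each, with DESeq2. The replicate block gave 10 calls and a Kcnj10 log2 fold change of -0.47 (edgeR adjusted p = 0.268). Deviations of same-numbered libraries correlated at 0.0176, -0.081, 0.0363 and 0.0138, so no shared deviation was seen. The labels do not say what the numbers stand for, so a pairing by design cannot be settled this way. With 4 libraries per group, differences inside the 95% intervals given for Bsnd, Kcnj15 and Kcnj16 are not excluded. Of 28 sets of 4 values (CPM, TPM and ratios of the channel genes), 0 had a value apart from the other 3 by Dixon's criterion.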

Other observations

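Markers of cells outside the tubule, or of segments not discussed with the channels, gave mixed values. Log2 fold changes of the podocyte markers were negative for 6 of 6 genes (median -0.26), with a summed level of 718 to 900 CPM in knockout kidneys and 910 to 1095 CPM in wildtype kidneys. EdgeR called 0 of them and DESeq2 called 2 lower, against 0.43% of the genes to which DESeq2 gave an adjusted p. Nphs1, the slit diaphragm gene of nephrin, had the smallest p of the list, at 56.4 ± 9.21 CPM in knockout kidneys and 81.6 ± 6.36 CPM in wildtype kidneys (SD, n = 4 each). Of the 7 thin limb markers 1 fell, the transporter gene Slc4a11, to 33.7 ± 4.32 CPM in knockout kidneys against 60.2 ± 5.65 CPM in wildtype kidneys (edgeR adjusted p = 0.0171), and the median of the list was -0.17. Without knockout 2 and wildtype 3 the Slc4a11 log2 fold change was -0.92 and its edgeR adjusted p was 0.0715, the thin limb median was -0.04 and the podocyte median was -0.41. Leaving out 1 library moved the thin limb median to between -0.30 (without knockout 1) and -0.07 (without knockout 2 or knockout 3). The call of Slc4a11 was also lost without knockout 1, knockout 4, wildtype 2 or wildtype 3 (edgeR adjusted p of 0.0732, 0.0671, 0.0602 and 0.0865 in that order).

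The endothelial, stroma and macrophage markers had medians of -0.14, 0.13 and -0.03, with 0 called by edgeR or DESeq2. At an unadjusted edgeR p under 0.05, each list had 1 lower gene, and stroma also had 1 higher gene. The shares of all genes at that p were 3.08% lower and 3.11% higher. The smallest p-values belonged to Plvap (log2 fold change -0.15 ± 0.06), Pdgfrb (-0.21 ± 0.06) and Csf1r (-0.18 ± 0.07).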
